A study of Mus musculus with 2 samples.

Results

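The 10 genes described here are markers of stem-like and of dormant melanoma cells, read in a dormant cell-derived melanoma line and in its maternal line. They are *Prom1*, *Cd24a*, *Cd44*, *Abcb5*, *Ngfr*, *Kdm5b*, *Nr2f1*, *Bhlhe41*, *Thbs1* and *Tgfb2*. The members were chosen by name, through the gene symbol of a probe or the current symbol of its transcript, and not by any measured value. They hold 18 probes on 36 spots, among 27790 genes or transcripts and 43379 spots on each array. RNA of 4 of these genes, *Cd44*, *Kdm5b*, *Bhlhe41* and *Tgfb2*, was measured above the detection limit in either line, and none of the 4 differed 2-fold. Over all genes 45.1% were detected, and 5.03% of the detected genes differed at least 2-fold on both arrays. *Cd44* and *Bhlhe41* were higher, and *Kdm5b* and *Tgfb2* lower, in the dormant cell-derived line on both arrays. The other 6 did not reach detection, so that no difference between the lines can be given for them.

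Stem-like cells of a tumour are those that renew themselves and can found a new tumour, and in melanoma they have been followed by surface proteins such as CD133, the product of *Prom1*, CD24, CD44, the transporter ABCB5 and the neurotrophin receptor NGFR. The histone demethylase encoded by *Kdm5b* marks slowly cycling melanoma cells. Dormancy of disseminated tumour cells, a long arrest of growth without death, has been linked to the transcription factors encoded by *Nr2f1* and *Bhlhe41* and to the matrix and growth factor signals of *Thbs1* and *Tgfb2*.

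B16F1 is a mouse melanoma cell line. The maternal line, B16F1-GFP-M, carries a transfected green fluorescent protein (GFP). The dormant DMC-derived line, B16F1-GFP-D, is the progeny of such GFP+ cells after challenge of mice. The founders had disseminated, lain without visible tumours for a year, and been sorted from mixed organs of control and immunised mice. B16F1-GFP-D came from a single colony, so it stands for 1 clone of cells that had already resumed division in culture and not for dormant cells in the animal. Both lines were untreated and grown in the same medium, DMEM with serum and antibiotics, in the absence of the host. Total RNA of both lines was labelled with different dyes and bound together to 2-colour Agilent arrays of 60-base probes. On array 1 the maternal RNA carried Cy5 and the dormant cell-derived RNA Cy3, and on array 2 the dyes were the other way round. The 2 arrays lay on 1 slide and shared 1 pair of lines, with no separate cultures named, so they counted as 1 replicate per line and no test between the lines was possible.

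A probe was taken as detected when the scanner software had marked more of its spots than not as well above background, in at least 1 line on both arrays. By this measure 12539 genes, or 45.1%, were detected. Detection was not even between the dyes, with 60.7% (B16F1-GFP-M) and 56.1% (B16F1-GFP-D) of spots well above background in Cy5, against 45.0% and 44.1% in Cy3. Local background also differed between the dyes, so brightness is given below as spot signal over local background, within 1 dye at a time. The lines were checked against cell type markers. All 9 melanocyte markers were well above background in both lines, among them *Mitf*, the master transcription factor of the lineage. Of 9 leukocyte markers 3 were detected, and *Ptprc*, the defining leukocyte surface protein, was not. Of 9 fibroblast markers 2 were detected, of 5 endothelial markers 1, and of 5 epithelial markers 0. RNA came from whole cultures, in which fewer cells holding a transcript and less of it in each cell cannot be told apart.

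The probe sequences decide which stretch of a transcript was read, and they are shown for 5 members where probes of a gene disagreed or where a much studied marker stayed near background. They are given from 5′ to 3′ on the transcript strand, all in lower case because the whole 60 bases bind. Their names carry the first base of the probe within the transcript.
Prom1 at base 2436: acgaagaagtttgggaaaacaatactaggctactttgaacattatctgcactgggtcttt
Cd44 at base 1851: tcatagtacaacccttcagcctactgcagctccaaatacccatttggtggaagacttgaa
Ngfr at base 878: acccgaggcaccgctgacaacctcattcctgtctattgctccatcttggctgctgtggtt
Kdm5b at base 577: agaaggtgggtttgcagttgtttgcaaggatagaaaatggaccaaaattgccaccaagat
Thbs1 at base 2578: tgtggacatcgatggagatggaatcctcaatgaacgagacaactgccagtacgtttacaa

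On the mouse build mm9 used by the array files, the *Prom1* probe lies at chr5:44397410-44397469 on the minus strand. The *Cd44* probe lies at chr2:102674420-102674479 and the *Ngfr* probe at chr11:95435537-95435596, both on the minus strand. The *Kdm5b* probe lies at chr1:136485365-136485424 on the plus strand. The *Thbs1* probe is split over 181 bases of the genome, chr2:117946712-117946892 on the plus strand, and the *Abcb5* probe over 1083 bases, so these probes cross an exon junction while the other 16 are unbroken. Exon and untranslated region limits on mm9 were not used here, and the place of a probe is given as its first base in the transcript. GC content of the 18 probes ran from 21.7%, for *Nr2f1*, to 55%, for 3 probes of *Ngfr*, *Bhlhe41* and *Thbs1*.

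Among the surface markers, *Cd44*, the hyaluronan receptor, was bright in both lines, whereas *Prom1* and *Cd24a* were at background in both. The *Cd44* probe at base 3985 (chr2:102652907-102652966, minus strand) had a signal over background of 54.1 in B16F1-GFP-M and 94.2 in B16F1-GFP-D in Cy5. In Cy3 it was 64.2 in B16F1-GFP-M and 112 in B16F1-GFP-D. B16F1-GFP-D was the brighter line in either dye. A second *Cd44* probe, at base 5225 (chr2:102651667-102651726), was spotted 10 times on each array, and all of its spots were well above background. In Cy5 these spots ran from 43.1 to 58.7 times background in B16F1-GFP-M, with a median of 48.7, and from 72.3 to 104 in B16F1-GFP-D, with a median of 88.4. In Cy3 they ran from 43.7 to 62.6 in B16F1-GFP-M, with a median of 54.1, and from 73.8 to 98.0 in B16F1-GFP-D, with a median of 88.7. The spots of the lines did not overlap in either dye, although within a dye the lines lay on different arrays. The remaining *Cd44* probe, at base 1851 and 21513 bases away on the chromosome, was not well above background in any channel, with values of 1.25 and 1.42 in Cy5 and of 1.64 and 2.01 in Cy3 for B16F1-GFP-M and B16F1-GFP-D. *Cd44* transcripts are known to be spliced with or without a run of variable exons, and whether this probe reads one of them was not tested.

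*Prom1* encodes the pentaspan membrane protein CD133 and had 2 probes. Neither had a spot well above background in any channel. At base 2436 the signal stood at 1.59 times background in B16F1-GFP-M and 1.43 in B16F1-GFP-D in Cy5, and at 1.65 and 2.09 in Cy3. At base 3189 it stood at 1.29 and 1.28 in Cy5 and at 1.70 and 2.03 in Cy3. With both probes B16F1-GFP-D was the higher line in Cy3 and B16F1-GFP-M in Cy5. *Cd24a*, which encodes the small glycosylated surface protein CD24, had a single probe at chr10:43303706-43303765, which stood at 1.19 and 1.24 in Cy5 and at 1.99 in both lines in Cy3. The study read CD133 and CD24 as proteins on the cell surface, whereas the arrays read RNA at these few probes.

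*Abcb5*, a drug efflux transporter, also stayed at background, with 1.41 in B16F1-GFP-M and 1.24 in B16F1-GFP-D in Cy5 and 1.59 and 1.81 in Cy3. Its only probe begins at base 51 of the transcript and spans chr12:120203761-120204843. *Ngfr*, the low-affinity neurotrophin receptor, lay at the limit of detection. Its probe at base 3270 (chr11:95430211-95430270) was spotted 10 times and kept 9 spots on each array after 1 outlier was left out. In B16F1-GFP-D, 9 of 9 spots were well above background in Cy5 and 1 of 9 in Cy3, while in B16F1-GFP-M 2 of 9 were in Cy5 and 0 of 9 in Cy3. The gene thus failed detection through the Cy3 side of array 1. In Cy5 the mean signal of its spots ran from 122 to 141 in B16F1-GFP-D on array 2, against 108 to 119 in B16F1-GFP-M on array 1. In Cy3 it ran from 51.3 to 60.7 in B16F1-GFP-D on array 1, against 39.8 to 48.2 in B16F1-GFP-M on array 2. These mean signals did not overlap between the lines, but each dye sets one array against the other before any normalisation. As signal over local background the spots overlapped in Cy5, at 1.32 to 1.56 in B16F1-GFP-M and 1.53 to 1.80 in B16F1-GFP-D. In Cy3 they did not, at 2.04 to 2.47 in B16F1-GFP-M and 2.52 to 3.00 in B16F1-GFP-D. The *Ngfr* probe at base 878 was well above background only for B16F1-GFP-M in Cy5, at 1.49 against 1.41 for B16F1-GFP-D, and stood at 2.44 and 2.24 in Cy3.

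**Figure D1:**
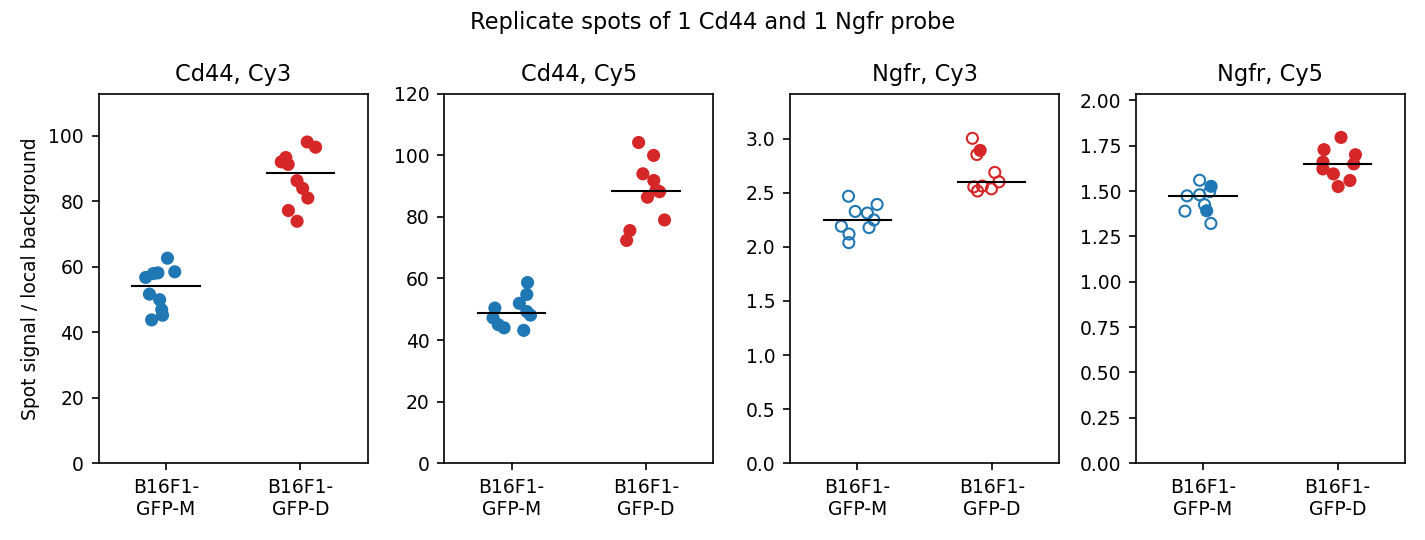
Replicate spots of the *Cd44* probe at base 5225 (10 spots per array) and the *Ngfr* probe at base 3270 (9 spots per array). The y axis is spot signal over local background (no unit), points are single spots, filled where well above background, blue for B16F1-GFP-M and red for B16F1-GFP-D, and bars are medians. *Cd44* spots lie between 72.3 and 104 in B16F1-GFP-D and between 43.1 and 62.6 in B16F1-GFP-M, and *Ngfr* spots reach 3.00 at most in any channel.

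*Kdm5b*, which removes methyl groups from lysine 4 of histone H3, was detected with both of its probes in both lines. At base 577 the signal stood at 11.3 times background in B16F1-GFP-M and 6.17 in B16F1-GFP-D in Cy5, and at 12.2 and 6.97 in Cy3. B16F1-GFP-M was the brighter line in either dye. The probe at base 5801, 43592 bases further along the chromosome at chr1:136528957-136529016, stood at 4.20 and 3.27 in Cy5 and at 4.13 and 5.08 in Cy3, so that B16F1-GFP-M was brighter in Cy5 only.

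Of the dormancy genes, *Nr2f1*, an orphan nuclear receptor of the COUP-TF family, was at background in every channel at its probe (chr13:78328489-78328548, minus strand), with 1.28 in B16F1-GFP-M and 1.15 in B16F1-GFP-D in Cy5 and 2.02 and 1.86 in Cy3. *Bhlhe41*, a transcriptional repressor of the circadian clock circuit, was detected in both lines with both probes. Its brighter probe, at base 1343 (chr6:145811275-145811334, minus strand), stood at 7.38 in B16F1-GFP-M and 8.68 in B16F1-GFP-D in Cy5, and at 7.77 and 11.7 in Cy3. The other, at base 324 (chr6:145812686-145812745), stood at 5.86 and 6.91 in Cy5 and at 5.79 and 8.14 in Cy3. B16F1-GFP-D was thus the brighter line with both probes in both dyes.

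*Thbs1* encodes thrombospondin 1, a matrix glycoprotein that can activate latent TGF-beta, and 3 probes read it. The probes at bases 2865 and 2578 were well above background only for B16F1-GFP-M in Cy5, at 1.78 and 1.45, and the probe at base 4707 in no channel. In B16F1-GFP-D the 3 probes stood at 1.42, 1.48 and 1.20 in Cy5 and at 2.83, 2.11 and 1.85 in Cy3. In B16F1-GFP-M they stood at 2.05, 2.26 and 1.87 in Cy3. No *Thbs1* probe was detected on both arrays in either line. *Tgfb2*, a ligand of the TGF-beta family, was read by 1 probe at base 4196 (chr1:188447534-188447593, minus strand) and was detected in both lines. It stood at 4.70 in B16F1-GFP-M and 4.01 in B16F1-GFP-D in Cy5, and at 5.44 and 4.48 in Cy3, B16F1-GFP-M being the brighter in either dye.

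Detection by probe therefore fell into 3 classes. In the first, 7 probes of *Cd44*, *Kdm5b*, *Bhlhe41* and *Tgfb2* were well above background in all channels. The 7 probes that were never well above background belonged to *Prom1*, *Cd24a*, *Abcb5*, *Nr2f1*, *Cd44* and *Thbs1*. They ran from 1.15 to 1.59 times background in Cy5 and from 1.59 to 2.09 in Cy3. The remaining 4 probes, of *Ngfr* and *Thbs1*, were well above background by most of their spots only in Cy5 and only for 1 line. Nearly the same ratio in both lines at this level does not show that a transcript is absent, since signal this near to background sets only an upper bound on it.

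**Figure D2:**
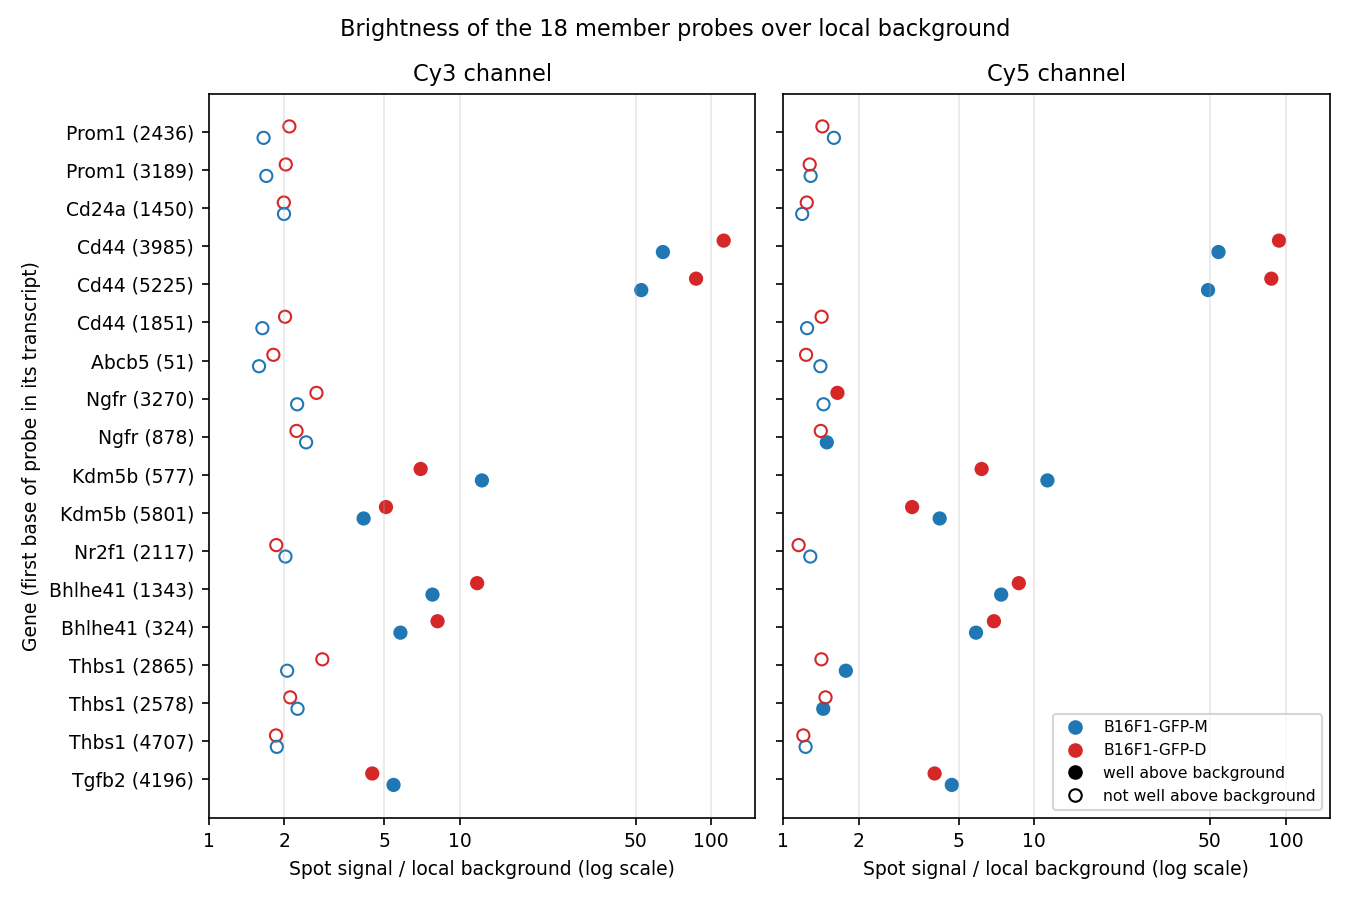
Brightness of the 18 probes, named by gene and first base in the transcript, as spot signal over local background (x axis, log scale), in Cy3 (left) and Cy5 (right). Filled points were well above background and open points were not, blue for B16F1-GFP-M and red for B16F1-GFP-D, and probes with several spots are shown by their mean. The 7 probes filled in all channels stand at 3.27 or higher, and the others stay at or under 2.83.

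Differences between the lines are given as the log2 ratio of the dormant cell-derived to the maternal line, after background correction and loess normalization within each array, so that a value above 0 is higher in B16F1-GFP-D. The spread beside a mean is the standard deviation between the 2 arrays, which holds dye effects but no variation between cultures. Pooled over all detected genes this standard deviation was 0.15, the median ratio was -0.01, and the median size of a ratio was 0.28. With a rule of size, at least 2-fold with the same sign on both arrays and a detected probe, 0 of the 4 detected members were called, against 631 of 12539 genes, or 5.03%. At 1.5-fold the rule took 1 of 4, *Kdm5b*, which was lower, where 1979 genes, or 15.8%, were called in either direction, 8.76% as higher and 7.03% as lower. At 3-fold it took 0 of 4, where it called 0.981% of genes. All 4 kept 1 sign on both arrays, with 2 higher and 2 lower. Over all detected genes 41% were higher and 42.8% lower on both arrays.

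*Cd44* was higher in B16F1-GFP-D with both detected probes. Its brightest probe, at base 3985, gave log2 ratios of 0.73 and 0.49 on arrays 1 and 2, a mean of 0.61 ± 0.17 (SD, n = 2 arrays) or 1.52-fold. At base 5225 the ratios were 0.62 and 0.60, with the same mean of 0.61 and an SD of 0.01. Its single spots ran from 0.59 to 0.64 on array 1 and from 0.56 to 0.63 on array 2, with all 10 above 0 on each. Both detected *Cd44* probes thus placed the gene at the same difference, which was larger than the spread between arrays. Of the detected genes, 18.7% had a ratio of larger size than *Cd44*.

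*Kdm5b* was lower in B16F1-GFP-D, by an amount that depended on the probe. At base 577 it had log2 ratios of -0.74 and -0.61, a mean of -0.68 ± 0.09 (SD, n = 2 arrays), or 1.60-fold lower, and 15.3% of detected genes had a ratio of larger size. At base 5801 it had -0.14 and -0.06, a mean of -0.10 ± 0.05. Both were negative on both arrays, but at the second probe the size was under the pooled SD of 0.15 between arrays. The median of the 2 probes put the gene at -0.39.

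*Bhlhe41* was higher in B16F1-GFP-D, again more at one probe than at the other. At base 1343 the log2 ratios were 0.49 and 0.39, with a mean of 0.44 ± 0.07 (SD, n = 2 arrays) or 1.36-fold, and 31.2% of detected genes had a larger size. At base 324 they were 0.02 and 0.23, with a mean of 0.12 ± 0.15, so that the difference at this probe was within its spread between arrays. The median of the 2 probes was 0.28. *Tgfb2* gave -0.21 and -0.11, with a mean of -0.16 ± 0.07 (SD, n = 2 arrays). The sign was the same on both arrays, but the size was close to the pooled SD between arrays and 68.8% of detected genes had a larger one.

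**Figure D3:**
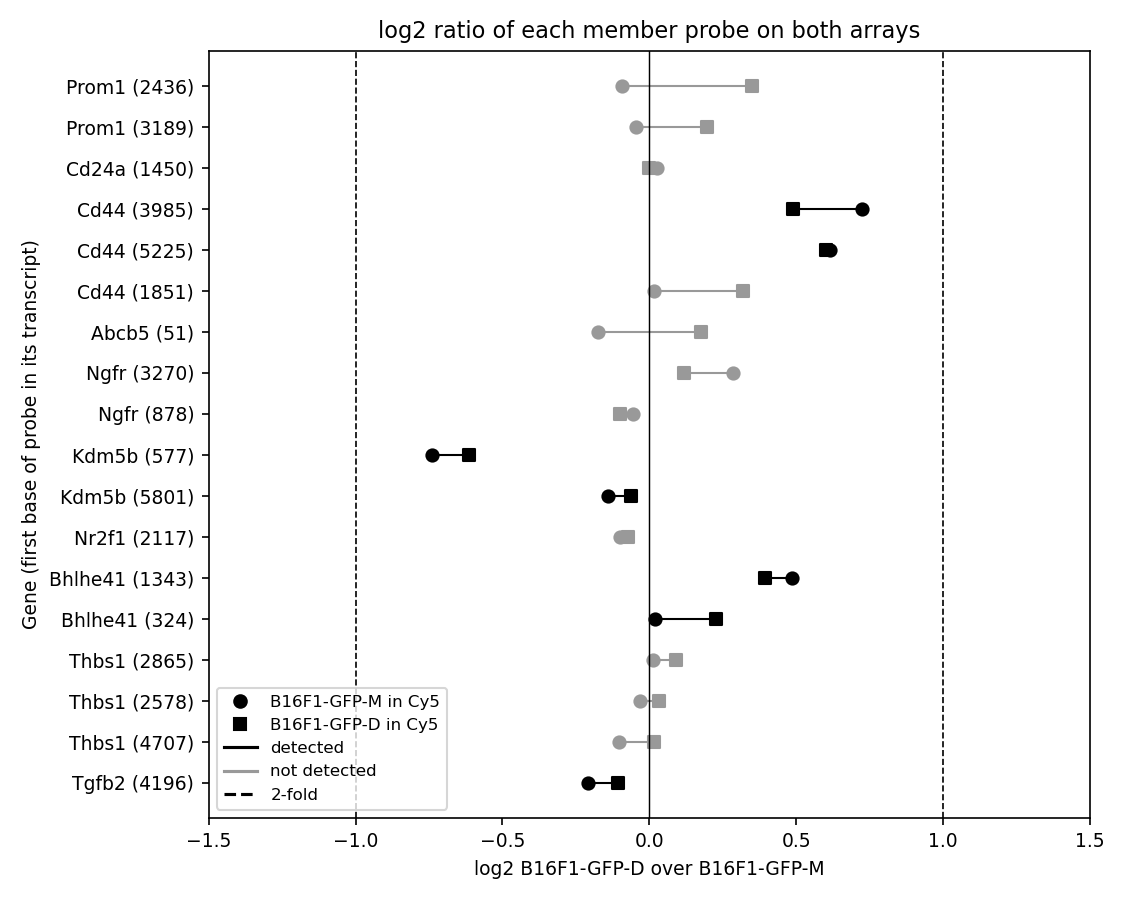
log2 ratio of the lines (x axis, above 0 where B16F1-GFP-D was higher) of the 18 probes, named by gene and first base in the transcript, on array 1 (circles, B16F1-GFP-M in Cy5) and array 2 (squares, B16F1-GFP-D in Cy5), with a line joining the arrays. Black probes were detected, grey ones were not, and dashed lines mark 2-fold. No probe reaches 2-fold, the largest sizes being those of *Kdm5b* at base 577 (-0.74 and -0.61) and *Cd44* at base 3985 (0.73 and 0.49).

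For the 6 genes that were not detected the ratios are given only for completeness, because the background correction draws ratios of dim spots towards 0. *Prom1* had opposite signs on the arrays with both probes, -0.09 and 0.35 at base 2436 and -0.05 and 0.20 at base 3189. *Abcb5* likewise gave -0.17 and 0.18. *Cd24a* gave 0.03 and -0.0014, and *Nr2f1* gave -0.10 and -0.07. The undetected probe of *Cd44* gave 0.02 and 0.32. The probes of *Thbs1* gave 0.01 and 0.09 at base 2865, -0.03 and 0.03 at base 2578 and -0.10 and 0.02 at base 4707. In *Prom1*, *Abcb5*, *Cd24a* and 2 of the 3 *Thbs1* probes the sign turned with the exchange of the dyes, and in *Nr2f1* it did not.

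*Ngfr* came nearest to detection among the undetected genes. Its probe at base 3270 gave 0.29 and 0.12, a mean of 0.20 ± 0.12 (SD, n = 2 arrays), and 9 of 9 spots on array 1 and 8 of 9 on array 2 were above 0. With the log ratio of the scanner software, which has no offset, the same probe gave 1.30 and 1.13, a mean of 1.21. That is past 2-fold on both arrays, but the probe did not meet the detection rule and was not counted. The probe at base 878 pointed the other way, with -0.06 and -0.10, or -1.04 and -0.36 by the scanner software. The direction of *Ngfr* was therefore not settled by its probes.

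The companion genes of these pathways were described by the same rule. There were 6 lists of companion genes with 118 distinct genes, of which 116 were on the arrays and 68 detected. *Nanog* and *Lrrc32* were not analysed here. Of the 68, 5 were called higher and 2 lower, beside 3.09% higher and 1.95% lower over all detected genes, while 25 were higher and 31 lower on both arrays and 12 had opposite signs. Their median log2 ratio was -0.03. Of the 68, 61 were well above background in both lines. *Aldh1a1*, *Aldh1a3*, *Gas6*, *Thbs2* and *Spp1* passed detection through B16F1-GFP-D only, and *Axl* and *Postn* through B16F1-GFP-M only. The counts of higher and lower genes can therefore follow in part from this filter. With both lines required, list medians were 0.15 (stem-like), 0.05 (dormancy), -0.12 (neurotrophin), -0.22 (TGF-beta and thrombospondin), 0.09 (CD44 and CD24 partners) and -0.14 (relatives).

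Other stem-like markers numbered 24 on the arrays, of which 14 were detected. Of these 8 were higher and 5 lower on both arrays, with a median of 0.10 that turned to -0.02 on array 1 alone, with detection on that array. The same 14 genes had medians of 0.16 on array 1 and 0.08 on array 2. Only *Abcg2*, the drug efflux transporter of side population cells, was called. It was lower in B16F1-GFP-D, with -1.64 and -1.48, a mean of -1.56 ± 0.11 (SD, n = 2 arrays) or 2.96-fold lower, and a second detected probe gave -0.78. *Myc*, a driver of proliferation singled out after its value was seen, came closest among the uncalled genes of this list, with -0.98 and -1.17 at its brightest probe and means of -0.69 and -0.25 at its other detected probes. It was called with the scanner software's ratio, the series value table, an offset of 0, a 1.5-fold threshold and on array 2 alone.

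Other dormancy genes numbered 23, of which 15 were detected, 7 higher and 6 lower on both arrays, with a median of 0.04. The 3 called genes were all higher in B16F1-GFP-D. *Bhlhe40*, the close relative of *Bhlhe41*, gave 1.31 and 1.21, a mean of 1.26 ± 0.07 (SD, n = 2 arrays). *Sox9*, a transcription factor of neural crest and stem cells, gave 1.64 and 1.28 at its brightest probe, with 1.21 and 0.22 as the means of its other detected probes. *Map2k6*, a kinase that activates p38, gave 1.08 and 1.07, but its other probes were not detected and gave 0.08 and 0.13. *Bhlhe40* and *Bhlhe41* were thus higher in the same line, at 1.26 and 0.44. Of the called dormancy genes read by several probes, *Sox9* was past 2-fold on both arrays at 2 of 3 probes, and *Map2k6* at its brightest only. The lowest mean of the list was -0.83, for *Cdkn1b*, singled out after its value was seen. Its other probes gave -0.71 and -0.92, and it was called only at the 1.5-fold threshold.

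Among neurotrophins, their receptors and the adaptors of NGFR, 7 of 15 genes were detected and 0 called, with 1 higher and 4 lower on both arrays and a median of -0.12. The largest sizes were -0.38 for *Nradd*, a death domain relative of NGFR, and 0.31 for *Maged1*, a partner of its intracellular part. In the TGF-beta and thrombospondin list, 18 of the 28 genes on the arrays were detected, of which 2 were higher and 12 lower on both arrays, with a median of -0.20. The share of lower genes over all detected genes was 42.8%. The called gene was *Ltbp4*, a latent TGF-beta binding protein of the matrix, with -1.07 and -1.01, a mean of -1.04 ± 0.04 (SD, n = 2 arrays). The ligands *Tgfb1* and *Tgfb3* gave means of -0.16 and -0.18, beside the -0.16 of *Tgfb2*. All 3 ligands lay on the lower side, each by little more than the pooled SD between arrays.

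Of the ligands and partners of CD44 and CD24, 9 of 19 were detected, 5 higher and 2 lower on both arrays, with a median of 0.13. This median turned to -0.04 without a filter on dim probes. With array 1 alone, and detection on that array, it was -0.03, while the same 9 genes had 0.15 on array 1 and 0.10 on array 2. *Hmmr*, another hyaluronan receptor and a mitotic spindle protein, was higher in B16F1-GFP-D, with 1.20 and 1.14 at its brightest probe. Its mean was 1.17 ± 0.04 (SD, n = 2 arrays), and a second probe gave 1.24. *Spp1*, which encodes osteopontin, a secreted ligand of CD44, gave 1.69 and 1.42. It was not well above background in B16F1-GFP-M on either array, so only a bound can be given, at least 2.74-fold higher in B16F1-GFP-D. The bound sets the mean level in B16F1-GFP-D, after Aquantile scaling between arrays, against the lowest level that was well above background in the channel of B16F1-GFP-M or, where higher, the level of the probe itself. *Hmmr* and *Spp1* differed in the same direction as *Cd44*, which itself stayed under 2-fold. They were named because they were called, and *Spp1* was detected through B16F1-GFP-D only, so no link to *Cd44* can be read from this.

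The closest relatives of the members, 15 genes of which 11 were detected, had a median of -0.12, with 5 higher and 5 lower on both arrays, and shared 8 genes with the lists above. *Bhlhe40* was the called gene. The demethylase *Kdm5a* had a mean of -0.41 at its brightest probe, but its other detected probes gave -0.40 and -0.08. *Kdm5c* had opposite signs on the arrays, -0.27 and 0.04, at its brightest probe, with a mean of -0.12, and a mean of -0.16 at the other. The detected probes of *Kdm5a* thus differed in size, as those of *Kdm5b* did, while the means of the *Kdm5c* probes were close. *Nr2f2* and *Nr2f6*, the relatives of the undetected *Nr2f1*, were both detected, at means of -0.30 and 0.02. No marker of another cell type was called by the main rule, which called 5.03% of all detected genes. The largest ratio was that of *Pdgfrb*, a receptor of mesenchymal cells, which was not well above background in B16F1-GFP-M and at least 1.68-fold higher in B16F1-GFP-D. The other detected fibroblast marker, the collagen gene *Col1a2*, was lower at its brightest probe, with -0.33 on both arrays, and gave 0.10 at its other probe. The endothelial *Vwf* gave 0.72 at its brightest probe, and 0.01 and 0.20 at its others. Of the detected leukocyte markers 1 was higher on both arrays (*Cd68*, 0.44), 1 was lower (*Lyz2*, -0.11) and 1 had opposite signs (*Cd3e*, -0.01). *Vwf*, *Cd68* and *Cd3e* were detected through B16F1-GFP-D only, since B16F1-GFP-M was well above background on array 1 alone. With the scanner software's ratio, which has no offset, the means were 4.10 for *Pdgfrb*, 1.81 for *Vwf* and 1.68 for *Cd68*. They were -0.87 for *Col1a2*, -0.20 for *Lyz2* and 0.11 for *Cd3e*. With an offset of 0 the means were, in the same order, 2.11, 1.42, 1.07, -0.60, -0.15 and 0.0031. Normalized intensity was also summed over all genes of a list, detected or not. For the fibroblast markers the sum was 711 and 715 in B16F1-GFP-M against 761 and 770 in B16F1-GFP-D. For the endothelial markers it was 386 and 378 against 456 and 434, and for the leukocyte markers 970 and 924 against 954 and 927. Only 2 of 9 fibroblast, 1 of 5 endothelial and 3 of 9 leukocyte markers were detected. The undetected genes add background and the offset of the correction to each sum, which draws the sums of the lines together. The part of fibroblasts, endothelial cells and leukocytes in the members' values was not tested. Of the melanocyte markers 3 were higher and 4 lower on both arrays, 2 had opposite signs and none was called. Their median was 0.06, from -0.18 on array 1 and 0.25 on array 2, and the genes ran from -0.92 for *Mitf* to 0.37 for *Gpr143*.

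**Figure D4:**
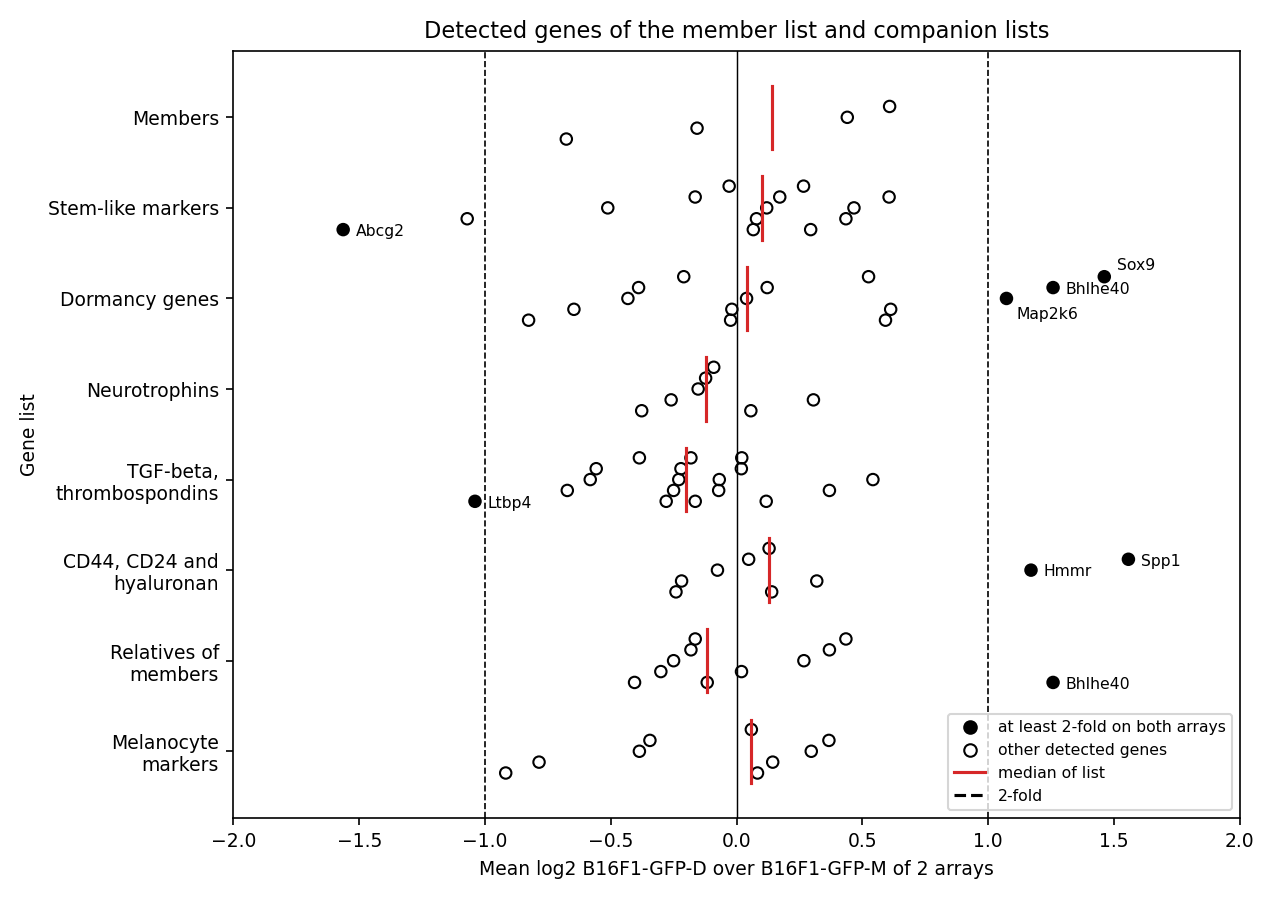
Mean log2 ratio of the lines (x axis, above 0 where B16F1-GFP-D was higher) of the detected genes in the member list, the 6 companion lists and the melanocyte markers. Each point is 1 gene, filled where called at least 2-fold on both arrays, red bars are list medians, the vertical scatter has no meaning, and *Bhlhe40* appears in both of its lists. The 4 members lie between -0.68 and 0.61 and none passes the dashed 2-fold lines.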

How the data were processed

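The 2 arrays compared total RNA of the B16F1-GFP-M and B16F1-GFP-D lines with exchanged dyes. The authors used Agilent Feature Extraction 10.7.3.1 to measure the deposited intensity of spots and local background, which is not normalized. The deposited log10 ratio, Cy5 over Cy3 after background subtraction and dye normalization by that software, and the series value table, which repeats it rounded, served as alternatives only. The deposited flags per spot gave outliers and spots well above background. Outlier spots (143 and 176) were left out, which kept 41164 of 41174 probes. In R 4.3.3 with limma 3.58.1, intensities were corrected by normexp with an offset of 50, normalized by loess within each array and turned to the log2 ratio of the dormant cell-derived to the maternal line. Replicate spots were averaged, and a gene was read from its brightest probe. Probes were named through RefSeq accessions in a table of GRCm38.p6, used for names only (27192 matched). With 1 replicate per line a rule of size replaced a test, and no p-value was computed. No spot was saturated. Precision is limited by the number of arrays. The procedure was tested on simulated data. Figures used Python 3.11.15, pandas 2.3.3, numpy 2.4.6 and matplotlib 3.10.9.

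The members, the 6 companion lists (stem-like, dormancy, neurotrophin, TGF-beta and thrombospondin, CD44 and CD24 partners, relatives) and the 5 marker lists (melanocyte, leukocyte, fibroblast, endothelial, epithelial) were chosen by role, with earlier results of these data known. Named are all members and, from each companion list, the called genes or, if there were none, the 2 largest ratios. *Tgfb1*, *Tgfb3*, *Kdm5a*, *Kdm5c*, *Nr2f2*, *Nr2f6*, *Myc*, *Cdkn1b* and the cell type markers were named outside this rule, after their values were seen. So were *Aldh1a1*, *Aldh1a3*, *Gas6*, *Thbs2*, *Axl* and *Postn*, which passed detection through 1 line only. Alternatives covered the background correction, the normalization, the dim probe filter, the probe of a gene, each array alone and the fold.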

Additional observations from a re-analysis of the deposited data

How the results depend on the processing

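The count of detected members was 4 also when both lines had to be well above background and when any probe could count. Neither setting could change it, since all 7 detected probes were well above background in all channels and no other member had a detected probe. Detection on each array alone was not counted for the members. *Ngfr* and *Thbs1* had probes well above background on 1 array only. The count of members past the size rule was 0 in every setting except the 1.5-fold threshold, where it was 1 (*Kdm5b*). Across the 9 alternatives for a single gene, *Cd44* and *Bhlhe41* stayed above 0 and *Kdm5b* and *Tgfb2* below 0. This held for means over the arrays, and for each array alone with the main normalization. The 9 were not independent. Aquantile scaling leaves the ratios as they were, the series value table repeats the scanner software's ratio, and each array alone is part of the main mean. With median centring in place of loess, *Cd44* was 0.79 as a mean, but -0.32 on array 1 and 1.90 on array 2. The other detected members likewise took opposite signs on arrays 1 and 2, -1.62 and 0.31 for *Kdm5b*, -0.39 and 1.34 for *Bhlhe41*, and -0.83 and 0.56 for *Tgfb2*. With the scanner software's ratio, *Kdm5b* was -0.89, *Bhlhe41* 0.51 and *Tgfb2* -0.28, and the series value table gave the same 3 values, -0.89, 0.51 and -0.28. With an offset of 0 they were -0.83, 0.52 and -0.25. With the median over all probes of the gene, *Kdm5b* was -0.39 and *Bhlhe41* 0.28. Over all genes the size rule called 1355 with the scanner software's ratio (758 higher, 597 lower), 1351 with the series value table (757 and 594), 1076 with an offset of 0 (634 and 442), and 64 with median centring (45 and 19), against 631 (387 and 244). The fold threshold gave 1979 at 1.5-fold and 123 at 3-fold. Companion genes called fell from 7 to 1 with median centring, *Spp1*, and to 0 at 3-fold. They rose to 9 with the scanner software's ratio, the series value table and an offset of 0, by *Gas6* (higher) and *Myc* (lower). On array 2 alone they were 8, with *Myc*. They were 6 where both lines had to be well above background, without *Spp1*, and 6 with the median of the probes, without *Map2k6*. At 1.5-fold they were 10, with 5 higher and 5 lower, against 5 and 2 by the main rule. Of the list medians, those of the neurotrophin (-0.21 to -0.03) and the TGF-beta and thrombospondin genes (-0.24 to -0.06) stayed below 0 in all alternatives. The others crossed 0: stem-like genes ran from -0.02 to 0.21, dormancy genes from -0.02 to 0.13, partners of CD44 and CD24 from -0.04 to 0.15, and relatives from -0.15 to 0.01. For list medians on 1 array alone, detection was taken on that array. The cause of the differences between alternatives was not tested. No paired analysis was possible because there was 1 replicate per line. Depth in the sense of signal over background limits all 6 undetected members.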
